A study of Homo sapiens with 4 samples.

Results

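CXCL10, CCL3L1, CCR1, CCR10, ITGB7, IRF7, RELB and PLEK are 8 of the 684 genes that passed the authors' threshold (a Q value under 0.05) when HRP2 knockdown cells were compared with control cells. They were chosen by symbol from among the called genes, as chemokines, chemokine receptors and regulators of inflammation. Their log2 fold changes and Q values are therefore the values that chose them, and they are given as a description without a test. CXCL10 and CCR1 were higher in the knockdown and the other 6 members were lower.

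The cells were LP-1, an established human multiple myeloma line that the labels call B lymphoblast, and the series concerns t(4;14) myeloma. Control cells received a lentiviral single guide RNA construct without a target (2 libraries), and knockdown cells received a lentiviral single guide RNA against HRP2 (2 libraries). HRP2 is a chromatin reader encoded by HDGFL2, whose log2 fold change was -1.37 (Q = 2.99e-13) in the authors' deposited table. The labels do not say whether the cells were a clone or a pool, or whether the guide cut or repressed the gene. Nor do they say that replicate libraries were separate cultures, and the spread behind the Q values may then be technical.

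Each value below is the authors' own log2 ratio of knockdown over control, from which the multiple of the control level was computed here. No value per library was used, so whether the groups overlap is not known, no value carries an SD, and the depth is unknown. The authors' deposited gene table holds called genes only, and a gene outside it has no value. Of the 24237 mRNA genes that the authors list, 2.81% were called, 1.49% higher and 1.32% lower. How many of the listed genes were tested is not given in the sources used here, and the share among tested genes would be larger if only some were tested.

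Chemokines are small secreted proteins that direct the movement of leukocytes by binding G protein-coupled receptors on them. Many of their genes are switched on by interferon, through STAT proteins and interferon regulatory factors, and by inflammatory signals, through the NF-kB family. Myeloma cells are malignant plasma cells, and chemokine receptors and integrins are known to guide and hold plasma cells in the bone marrow and at mucosal surfaces.

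The promoter of CXCL10 and that of CCR1 are shown first, because these were the members that were higher. Each window runs from 250 bases before to 50 after the start, 5′ to 3′ along the gene, from RefSeq on GRCh38.p14, and a start in RefSeq need not be the start used in LP-1. CXCL10 lies on the minus strand at chr4:76023448-76023747, and CCR1 on the minus strand at chr3:46208264-46208563. Capitals mark motif matches.
CXCL10: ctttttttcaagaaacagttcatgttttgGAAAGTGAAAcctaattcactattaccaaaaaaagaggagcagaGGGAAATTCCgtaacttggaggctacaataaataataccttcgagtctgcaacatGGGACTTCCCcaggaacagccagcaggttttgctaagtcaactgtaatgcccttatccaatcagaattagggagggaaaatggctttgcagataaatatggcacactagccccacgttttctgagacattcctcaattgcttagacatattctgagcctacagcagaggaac
CCR1: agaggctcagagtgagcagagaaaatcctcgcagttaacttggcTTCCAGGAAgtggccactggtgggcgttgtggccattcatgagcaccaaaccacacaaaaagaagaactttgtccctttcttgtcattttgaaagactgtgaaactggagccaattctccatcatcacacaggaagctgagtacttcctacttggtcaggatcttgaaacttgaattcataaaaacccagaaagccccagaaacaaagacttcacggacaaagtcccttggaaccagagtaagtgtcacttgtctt

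The CXCL10 window held 3 matches. The first is an interferon-stimulated response element, the sequence bound by interferon regulatory factors and STAT complexes, searched as GAAA and GAAA set 2 bases apart and found from base -221 as GAAAGTGAAA. The others match the kappaB consensus, the site of NF-kB dimers, as GGGAAATTCC from base -177 and as GGGACTTCCC from base -122. In the CCR1 window the capitals mark a gamma-activated site, the motif of STAT dimers, searched as TTCNNNGAA, found from base -206 as TTCCAGGAA.

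Of 27303 promoter windows of the same length, 1 per gene, 3.65% held the interferon element, 5.72% the kappaB consensus and 7.88% the gamma-activated site. The interferon element occurred together with a kappaB match in 48 windows (0.176%), and with at least 2 kappaB matches, the CXCL10 arrangement, in 6 windows (0.022%). That combination was counted after the CXCL10 matches had been seen.

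Windows were matched for 4 of the 8 members, CXCL10, CCR1, ITGB7 and PLEK. None of these 4 windows held the AP-1 motif TGANTCA (7.76% of all windows), the heat shock element, searched as GAA, TTC and GAA set 2 bases apart (0.487%), the TATA motif TATAAA (12%) or a narrower form of the kappaB consensus, searched as GGGA and TTTCC set 1 base apart (0.579%). The ITGB7 and PLEK windows had no match to any of the 7 motifs, which says only that these letters are not in these windows. All motifs were searched on both strands. A match describes the letters and is not evidence of binding.

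**Figure D1:**
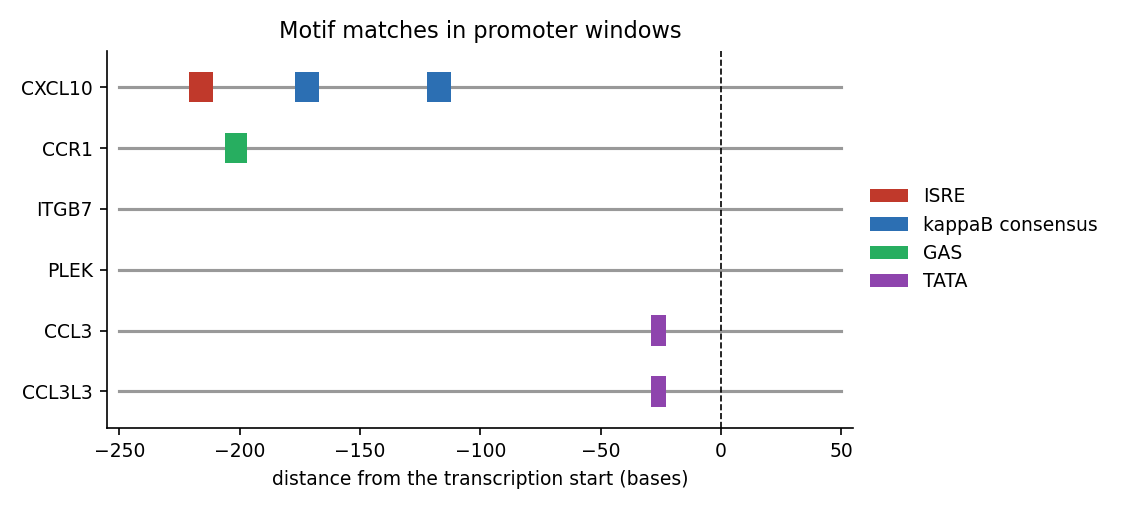
Positions of exact motif matches, in bases from the transcription start, in the promoter windows of 4 members and of CCL3 and CCL3L3. Coloured boxes are matches and grey lines are the windows; CXCL10 has an interferon element (ISRE) and 2 kappaB matches, CCR1 a gamma-activated site (GAS), CCL3 and CCL3L3 a TATA match from base -29, and ITGB7 and PLEK none.

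The windows were poor in CG dinucleotides, the site of DNA methylation. CXCL10 and CCR1 each held 3 and ITGB7 and PLEK each held 4, where the median window held 14 and the lower quartile was 3. GC content was 41.3% for the CXCL10 window, 45.3% for CCR1, 47% for PLEK and 51.7% for ITGB7, all under the median of 58.3% over all windows.

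Among the ligands, CXCL10 and CCL3L1 went in opposite directions. CXCL10 (gene ID 3627, chromosome 4), the interferon-inducible ligand of CXCR3 that attracts activated T cells, had a log2 fold change of 2.09 (Q = 1.00e-07) in the authors' deposited table, 4.26 times the control level. By size it ranked 5 among the 361 higher genes. The other CXCR3 ligands, CXCL9 and CXCL11, and the receptor CXCR3 itself were not in the gene table or the transcript table.

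CCL3L1 (gene ID 6349, chromosome 17), a ligand of CCR1 whose copy number differs between people, had a log2 fold change of -7.11 (Q = 0.00222) in the authors' deposited table. By size it ranked 2 among the 323 lower genes, and it was among 6 genes of the table whose log2 fold change was 6 or more in absolute size. A ratio of that size can arise when few or no reads are assigned to the gene in a group, and no value per library was used that would show it, so no fold is computed from it.

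CCL3L1 is a near copy of CCL3, which encodes the chemokine MIP-1alpha. Their coding sequences, from GENCODE 29 on GRCh38, chromosome 17, minus strand, stop codon included, are shown with the bases that differ in capitals.
CCL3: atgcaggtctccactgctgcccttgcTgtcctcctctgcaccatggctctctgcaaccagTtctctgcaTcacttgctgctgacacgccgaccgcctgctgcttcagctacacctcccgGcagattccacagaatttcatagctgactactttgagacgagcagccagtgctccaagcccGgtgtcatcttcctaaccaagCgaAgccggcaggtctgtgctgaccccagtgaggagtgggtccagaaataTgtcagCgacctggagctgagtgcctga
CCL3L1: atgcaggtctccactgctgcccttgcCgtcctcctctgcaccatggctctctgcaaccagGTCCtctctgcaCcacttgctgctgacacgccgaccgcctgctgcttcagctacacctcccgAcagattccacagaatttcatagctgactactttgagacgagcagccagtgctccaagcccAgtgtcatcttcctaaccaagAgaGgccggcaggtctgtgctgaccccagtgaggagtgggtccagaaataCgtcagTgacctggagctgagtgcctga

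The alignment had 282 columns, of which 270 (95.7%) were identical, 9 were substitutions and 3 were bases present only in CCL3L1. The longest identical coding stretch was 60 bases, and over the whole transcripts, untranslated parts included, it was 83 bases. Of the 31-base words of the CCL3L1 transcript, 31.8% also occurred in a CCL3 transcript, against at most 0.037% of words shared with any other gene for the other 7 members. A further copy, CCL3L3, is listed by the authors. GENCODE's CCL3L1 transcript begins at the same base as the RefSeq CCL3L3 promoter, so these names are not used alike by the annotations, and sharing between CCL3L1 and CCL3L3 was not measured. Reads could be split between these copies during counting.

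CCL3 was not called as a gene, but its transcript was. The authors' deposited transcript table gave it a log2 fold change of -3.14 (Q = 0.0493), 0.114 times the control level and the same direction as the CCL3L1 gene. That table also lists called transcripts only, so 100% of its 1040 transcripts passed. No transcript of CCL3L1 or CCL3L3 was among them, and CCL3L3 was not called as a gene. CCL4 and CCL5, other inflammatory chemokines of the same subfamily, were in neither table.

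**Figure D2:**
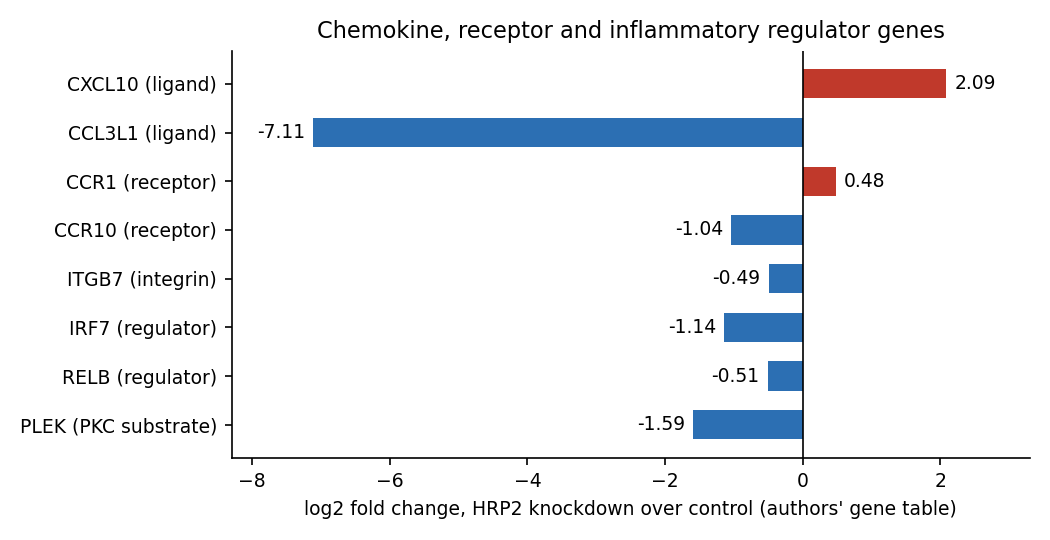
The authors' log2 fold change, HRP2 knockdown over control, for the 8 members, with red bars for higher and blue bars for lower values and the value printed at each bar. CCL3L1 at -7.11 is far below the other lower members, which lie between -1.59 and -0.49. No error bars are drawn, since no value per library was used.

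The chemokine receptors were also split. CCR1 (gene ID 1230, chromosome 3), a receptor for CCL3, CCL5 and CCL3L1, was higher, at 0.48 (Q = 0.0385) on the log2 scale in the authors' deposited table, which is 1.4 times the control level. It ranked 330 of 361 by size, close to the smallest changes that were called. CCR10 (gene ID 2826, chromosome 17), the receptor for CCL27 and CCL28 that marks plasma cells homing to mucosa, was lower. Its log2 fold change was -1.04 (Q = 1.14e-04) in the authors' deposited table, or 0.486 times control. Neither CCL27 nor CCL28 was in the gene table or the transcript table.

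The exons of CCR10 overlap other genes. In GENCODE 29 they share 381 bases with CNTNAP1 and 439 with an antisense RNA gene, both on the opposite strand. Whether the libraries kept strand is not stated, and without strand, reads from CCR10 and from these partners cannot be told apart. Neither partner was in the authors' deposited tables. CCL3L1 and CCL3 have the same limit. Their exons share 342 and 1115 bases with antisense RNA genes on the opposite strand, which were not in those tables either.

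ITGB7 (gene ID 3695, chromosome 12) encodes the beta7 integrin chain, which pairs with the alpha4 chain to bind MADCAM1 in the gut and with the alphaE chain to bind E-cadherin, and its overexpression is known in subtypes of myeloma. Its log2 fold change was -0.49 (Q = 0.00288) in the authors' deposited table, 0.71 times control. It was the only member with a called transcript: the authors' deposited transcript table gave -0.81 (Q = 0.00481), or 0.57 times control, in the same direction from the same libraries. The partner chains ITGA4 and ITGAE and the ligands MADCAM1 and CDH1 were in neither table. ITGB7 exons share 1886 bases with ZNF740 on the opposite strand, which was not in the tables either.

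Among the regulators, IRF7 and RELB were lower. IRF7 (gene ID 3665, chromosome 11), the transcription factor that drives type I interferon genes after virus sensing, had a log2 fold change of -1.14 (Q = 0.0288) in the authors' deposited table, 0.455 times control. RELB (gene ID 5971, chromosome 19), the DNA-binding partner of p52 in the noncanonical NF-kB pathway, was at -0.51 (Q = 0.0391) in the authors' deposited table, 0.703 times control. It had the largest Q value of the 8 members. Neither gene had a called transcript.

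PLEK (gene ID 5341, chromosome 2) encodes pleckstrin, the major protein kinase C substrate of platelets, which leukocytes also express and which acts on the actin cytoskeleton and phosphoinositide signalling. It was lower, at -1.59 (Q = 2.62e-04) in the authors' deposited table, or 0.332 times the control level. That was the largest decrease among the members after CCL3L1, at rank 29 of 323. None of its 31-base words occurred in another gene, and its exons overlapped no other gene.

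By size the members did not form a group. The authors' deposited table gave 5 of the 8 a log2 fold change of 1 or more in absolute size, where 149 of all 684 called genes (21.8%) had one. CCR1, ITGB7 and RELB lay among the smallest changes, with ranks of 330 of 361 higher and 306 and 301 of 323 lower genes. The median over the 8 members was -0.77, beside 0.47 over all called genes, of which 52.8% were higher. Since the members were picked with these values known, nothing follows from that contrast.

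**Figure D3:**
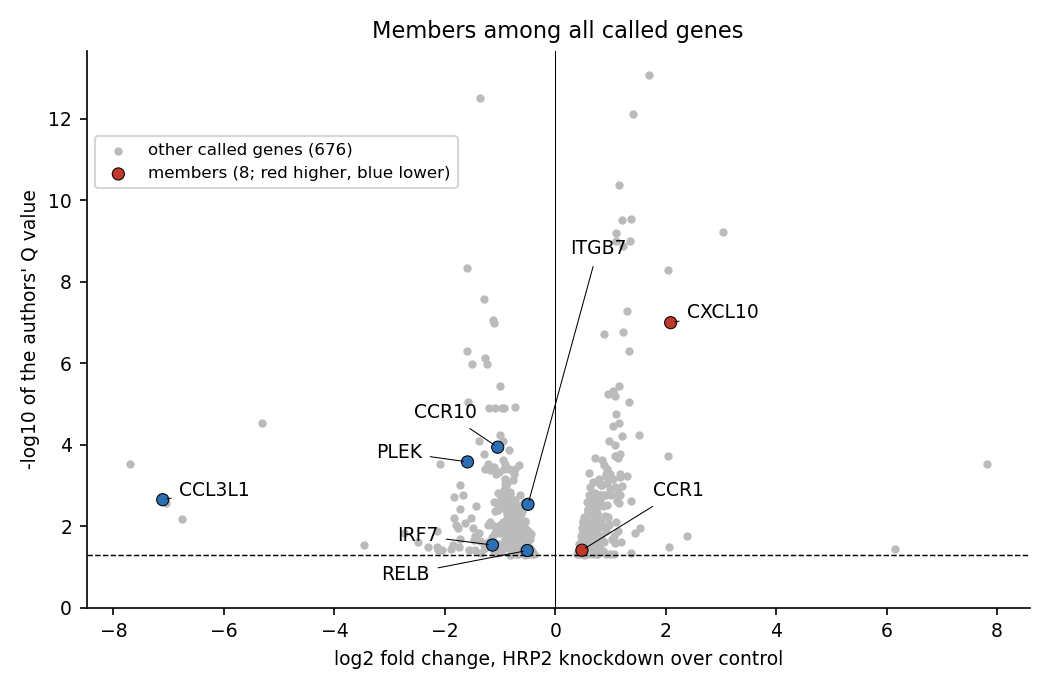
All 684 genes of the authors' gene table by log2 fold change (horizontal axis, knockdown over control) and -log10 of the Q value (vertical axis), with the 8 members outlined, red where higher and blue where lower, and a dashed line at a Q value of 0.05. CXCL10 lies among the larger increases at 2.09, CCL3L1 lies at the far left, and CCR1, RELB and IRF7 lie close to the line.

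Base composition moved with direction among called genes. The longest protein-coding transcript had a median GC content of 45.7% for higher and 56.1% for lower genes (677 genes with a GENCODE 29 transcript). The members followed the same order. CXCL10 was at 37.5% and CCR1 at 46.1%, both under the median of 48.9% over called genes. IRF7 was at 66.8%, CCR10 at 66.7%, RELB at 65.4% and ITGB7 at 59.4%, all above the upper quartile of 57.3%, and CCL3L1 was at 51.9%. PLEK was the exception, lower in the knockdown with a GC content of 46.6%. The part of base composition in these fold changes was not tested.

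**Figure D4:**
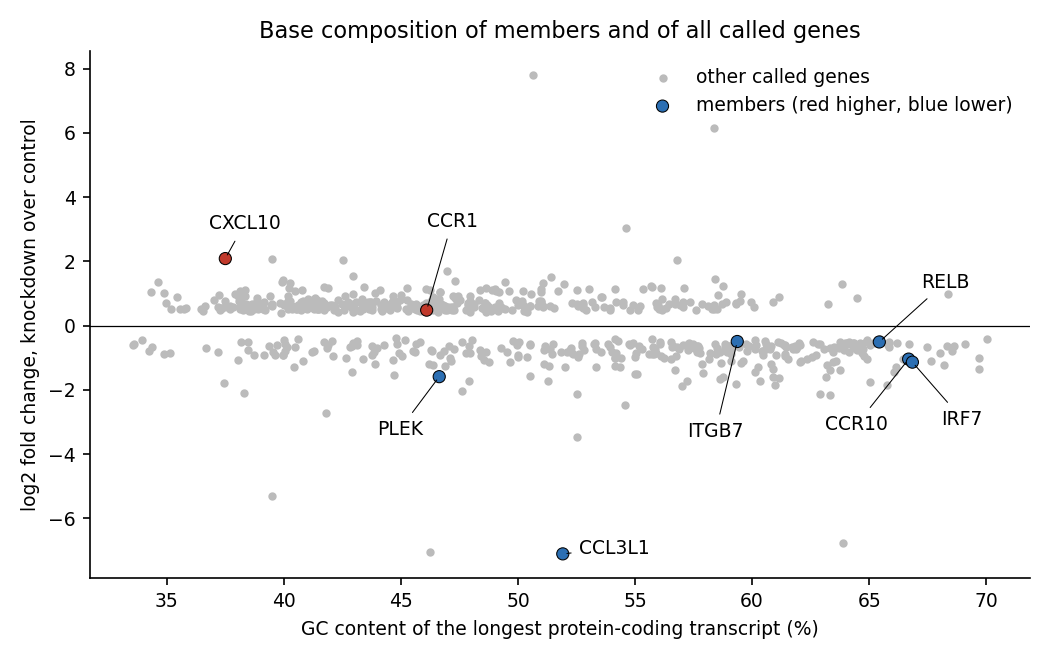
GC content of the longest protein-coding transcript (horizontal axis, percent) against the authors' log2 fold change (vertical axis) for 677 called genes in grey, with the 8 members outlined, red where higher and blue where lower. IRF7, CCR10 and RELB lie at the GC-rich end among lower genes and CXCL10 at the GC-poor end among higher genes; the empty band around 0 reflects that only called genes have a value.

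The wider pathways were read from 17 gene lists (447 distinct genes, all matched to the authors' identifiers), of which 27 genes were called. No test is attached to these counts. The members on these lists were chosen as called genes, so counts that hold members restate that choice in part or in full. Besides the members, no chemokine ligand of 48 and no chemokine receptor of 22 was called, so each list had 1 gene higher and 1 lower (4.17% and 9.09% called, beside 2.81% of listed mRNA genes). Every called gene of both lists is a member, so these shares follow from the choice of members and show no excess. From the 28 genes that carry the signal of chemokine receptors, 2 were called (7.14%), both lower: PTK2B, a focal adhesion kinase relative, at -0.65 (Q = 3.17e-04) and GRK6, which desensitises chemokine receptors, at -0.54 (Q = 0.0119) in the authors' deposited table. The list had 5 called transcripts, 1 higher and 4 lower. Those of PTK2B and GRK6 were lower, as was 1 of RGS16, which limits G protein signalling, at -1.61 (Q = 1.74e-04), while 1 of GRK3, a relative of GRK6, was at 9.28 (Q = 0.00141) in the authors' deposited transcript table. Neither RGS16 nor GRK3 was called as a gene. As for CCL3L1, a ratio as large as that of GRK3 can arise when few or no reads are assigned in a group.

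Of 41 integrins, integrin activators and ligands, 3 were called (7.32%, beside 2.81% of listed mRNA genes), 1 higher and 2 lower. ITGA3, a laminin-binding chain, was at -1.34 (Q = 0.0445) and ITGB8, a chain that activates TGF-beta, at 0.57 (Q = 0.0271), beside ITGB7 at -0.49, in the authors' deposited table. These chains do not pair with ITGB7.

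Interferon regulatory factors had 3 of 9 genes called (33.3%, beside 2.81% of listed mRNA genes called and 1.32% called lower), all lower. Their median was -0.63 on the log2 scale (0.47 over all called genes and -0.78 over the lower ones). IRF7 among them was chosen as a called gene, so the count partly restates that choice. IRF4, on which myeloma cells depend, was at -0.63 (Q = 0.00323) and IRF1, an activator of interferon-gamma responses, at -0.58 (Q = 0.0432), beside IRF7 at -1.14, in the authors' deposited table. At the transcript level IRF4 went both ways, at -1.04 (Q = 0.0108) and 1.93 (Q = 4.26e-04) in the authors' deposited transcript table. IRF2, not called as a gene, had 1 transcript at -2.11 (Q = 5.58e-04) and another at 23.11 (Q = 1.70e-07) in the authors' deposited transcript table. A log2 ratio of 23.11 can arise when few or no reads are assigned to a transcript in a group, so it is not read as a fold.

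Interferon-induced genes did not share a direction, with 6 of 56 called (10.7%, beside 2.81% of listed mRNA genes), 2 higher and 4 lower. CXCL10 had the largest change of them, at 2.09 in the authors' deposited table. ISG20, an exonuclease, was lower at -1.02 (Q = 0.0273) and IFI35 at -0.67 (Q = 0.0169) in the authors' deposited table, as were IRF7 and IRF1. The other higher gene was EIF2AK2, which encodes the double-stranded RNA sensor PKR, at 0.53 (Q = 0.0423) in the authors' deposited table. The list was chosen with earlier results of these data known. The list had 2 called transcripts, both higher, of SAMD9L at 10.12 (Q = 0.002) and STAT2 at 6.45 (Q = 0.0279) in the authors' deposited transcript table. On the list of interferon receptors and JAK-STAT genes, the called transcripts were that of STAT2 and 1 of STAT4, at 8.40 (Q = 0.0138) in the same table. None of these 3 was called as a gene. Ratios of this size can arise when few or no reads are assigned to a transcript in a group, which was not tested.

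RELB was the only called gene of a list of 32 NF-kB subunits, inhibitors and kinases (3.12%, near the 2.81% of listed mRNA genes). As RELB is a member, that count restates the choice of members. NFKBIL1, a gene outside that list whose product resembles NF-kB inhibitors, was called too, at -0.76 (Q = 0.00833) in the authors' deposited table, and was picked after its value was seen. Transcripts of 3 genes on that list, none of them called as a gene, were in the authors' deposited transcript table: TRAF3, an inhibitor of the noncanonical pathway, at 9.30, MAP3K7, which encodes the kinase TAK1, at -9.20, and CYLD, a deubiquitinase, at 1.64, -8.34 and -10.71. Changes of such size were common there, with 79.1% of the called transcripts at 6 or more in absolute log2 fold change. They can arise when few or no reads are assigned to a transcript in a group.

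Among 35 pattern recognition genes 1 was called (2.86%, near the 2.81% of listed mRNA genes), the inflammasome sensor NLRP1, at -1.50 (Q = 0.0108) in the authors' deposited table. Of 41 cytokine receptors 5 were called (12.2%, beside the same 2.81%), 2 higher and 3 lower. TNFRSF1B, the TNF receptor TNFR2, was at 0.99 (Q = 0.00124) and the death receptor FAS at 0.51 (Q = 0.0375), while IL21R was at -0.94 (Q = 8.05e-05), TNFRSF13B at -0.74 (Q = 0.0293) and TNFRSF17, which encodes BCMA, at -0.48 (Q = 0.0392), all in the authors' deposited table. None of 50 interleukins and other cytokines was called (0%, beside the same 2.81%). The authors' test is not given in the sources used here, and no unadjusted p-value was used.

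Of 18 genes for pleckstrin, protein kinase C and its partners, 2 were called (11.1%, beside 2.81% of listed mRNA genes), PLEK and MARCKSL1. MARCKSL1, which encodes a relative of the protein kinase C substrate MARCKS, went opposite to PLEK, at 0.70 (Q = 0.0124) in the authors' deposited table.

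**Figure D5:**
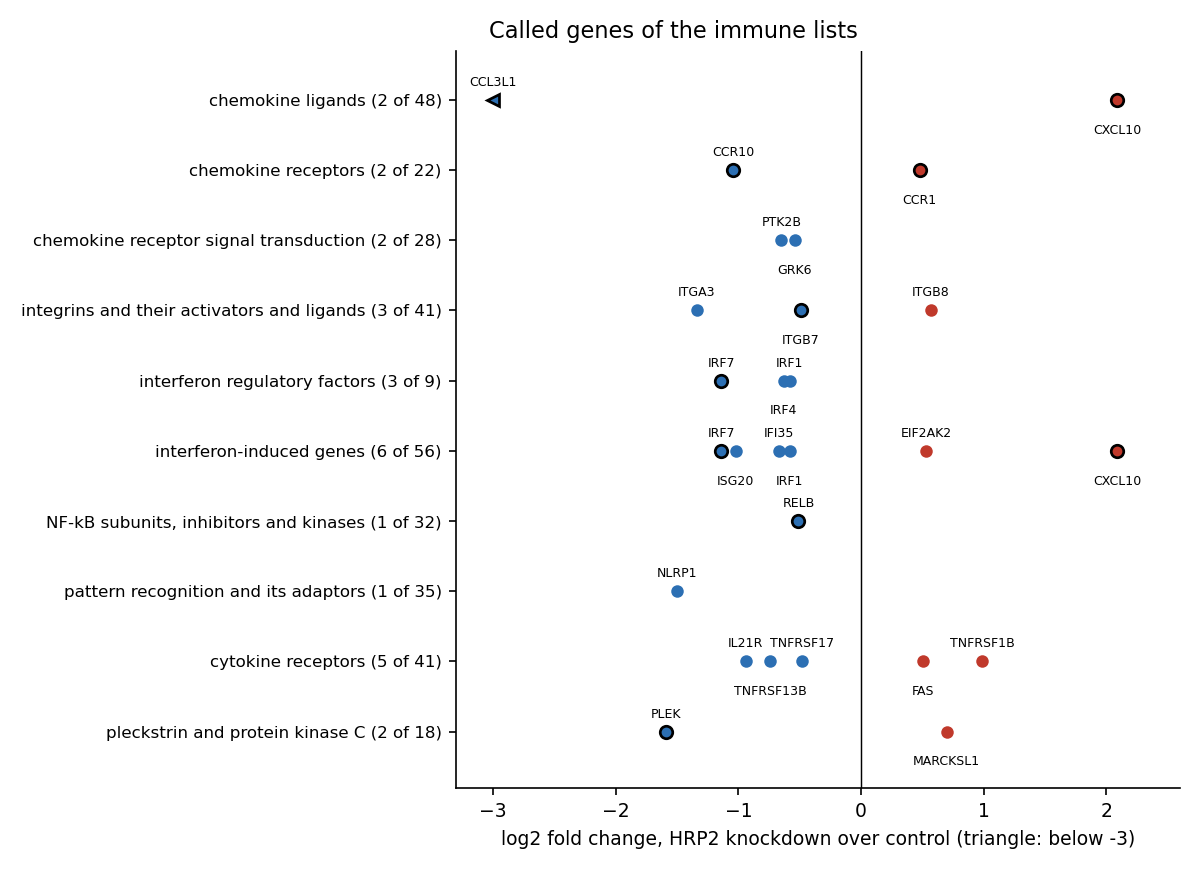
Called genes of the 10 immune lists that had any, by the authors' log2 fold change (horizontal axis), with the number called of the number on the list beside each name. Points are genes, red where higher and blue where lower, members have a black outline, and the triangle stands for CCL3L1, which lies beyond the axis; the 3 called interferon regulatory factors lie left of 0 and the 6 interferon-induced genes on both sides.

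Platelets and myeloid cells express PLEK and CCR1 strongly, so markers of other cells were looked for. None of 15 myeloid, 9 platelet or 11 B cell markers was in the gene table (0%, beside 2.81% of listed mRNA genes called). Lists this short can hold no called gene at that share, so the absence says nothing of these cell types. A transcript of the B cell marker CIITA was at 5.91 (Q = 0.0282) in the authors' deposited transcript table. Of 15 T and NK cell markers 1 was called (6.67%, beside 2.81% of listed mRNA genes), NCAM1, at -0.83 (Q = 0.0281) in the authors' deposited table. A call on that 1 gene does not show T or NK cells in LP-1. Whether these markers were at 0 is not known, since uncalled genes have no value, and their part in the result was not tested. Of 15 plasma cell markers 5 were called, all lower (33.3%, beside 1.32% of listed mRNA genes called lower), from LY9 at -1.29 (Q = 2.70e-08) to SDC1, which encodes CD138, at -0.45 (Q = 0.0446) in the authors' deposited table. The others of the 5 were IRF4, TNFRSF13B and TNFRSF17, which were also counted on lists above. Levels of the plasma cell markers, and so the plasma cell identity of the line, could not be checked. In bulk RNA, fewer cells of a type and less RNA per cell cannot be told apart.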

How the data were processed

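RNA sequencing libraries of LP-1 cells (2 per group) were made by BGI protocols from Trizol-extracted RNA, per the labels. BWA, Bowtie2, RSEM and hg19 are named, per the submitters' processing notes, without roles or versions. The log2 fold changes and the Q value of each gene and transcript are the authors' own, as deposited; their test and normalization were not given in the sources used here. The other 2 deposited tables hold identifiers, symbols and RNA types without numbers, and served to match symbols. No value per library was used, so the planned fits over libraries were not run and depth is unknown.

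The members, lists and motifs were chosen with earlier results of these data known. Named are the members, every called gene of a list with up to 6, and otherwise the 4 with the smallest Q value. CXCL9, CXCL11 and other partners outside the tables, and NFKBIL1, are named in addition. Some genes of the lists are not reported here and were left out of the counts. Symbols were matched by gene ID. GC content and sequence sharing (31-base words) used the longest protein-coding transcript of GENCODE 29, and promoters came from RefSeq (GRCh38.p14). The motif search and the word count were tested on simulated sequences. Python 3.11.15, pandas 2.3.3 and Biopython 1.88 were used.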

Additional observations from a re-analysis of the deposited data

How the results depend on the processing

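The deposited values allowed alternatives on thresholds and sequences only. No paired analysis was possible because the tables hold no value per library, and leaving out a library was not run for the same reason. With a Q value under 0.01, 134 higher and 121 lower genes were left. Of the 8 members 5 were left (CXCL10, CCL3L1, CCR10, ITGB7 and PLEK), of the chemokine receptors, receptor signal transduction genes, integrins, interferon regulatory factors, interferon-induced genes and pleckstrin and protein kinase C genes 1 each, of the cytokine receptors and plasma cell markers 2 each, and of the NF-kB, pattern recognition and T and NK cell lists 0. With the log2 fold change at 1 or more in absolute size, 58 higher and 91 lower genes were left. Of the members 5 were left (CXCL10, CCL3L1, CCR10, IRF7 and PLEK), of the interferon-induced genes 3, of the chemokine receptors, integrins, interferon regulatory factors, pleckstrin and protein kinase C genes and plasma cell markers 1 each, and of the receptor signal transduction, NF-kB, cytokine receptor and T and NK cell lists 0. Fewer genes pass a stricter threshold by construction. No called gene of a list shared 50% or more of its words, so leaving out such genes changed no list count. The largest share was 31.8%, for CCL3L1, so the cutoff could remove no gene. The unchanged counts therefore do not show that sharing is without effect, and sharing with CCL3L3 was not measured. ITGB7 was -0.81 by its transcript in place of -0.49. With 1 mismatch allowed, the interferon element was found in 3 of the 4 member windows (33.4% of all windows), the gamma-activated site in 3 (66.4%), the kappaB consensus in 4 (49.7%), its narrower form in 2 (8.53%), AP-1 in 2 (62.9%), TATA in 4 (60.1%) and the heat shock element in 0 (6.36%). With 51-base words, sharing was 9.13% for CCL3L1, 9.2% for CCL3 (32.1% with 31 bases) and 0 for CCR1.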

Other observations

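Other immune genes of the authors' deposited gene table, picked after their values were seen, are given here as values. CD28, a costimulatory receptor that myeloma cells can carry, was at 0.5 times the control level (Q = 5.77e-05), from its ratio in the authors' deposited table. CD48, a SLAM family ligand, and SELPLG, the selectin ligand PSGL-1, lay at -0.69 (Q = 0.0273) and -0.66 (Q = 0.0134) on the log2 scale in the authors' deposited table. The sheddase ADAM8 was at -0.50 (Q = 0.0436), and NLRX1, a mitochondrial NOD-like receptor, at -0.99 (Q = 0.00199) in the authors' deposited table. LCP1, which encodes the leukocyte actin-bundling protein L-plastin, was higher, at 0.68 (Q = 0.0334) in the authors' deposited table.

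Among transcripts, PELI1, which encodes a ubiquitin ligase of Toll-like receptor signalling, had 1 called transcript, at -10.92 (Q = 1.22e-06) in the authors' deposited transcript table. For IL6ST, the shared chain of receptors of the IL-6 family and so of a growth factor of myeloma cells, the 2 called transcripts were at -2.36 (Q = 0.0245) and -11.20 (Q = 3.13e-07), and for IL6R the called transcript was at -2.92 (Q = 0.00141) in the authors' deposited transcript table. None of these 3 genes was called in the gene table. The largest of these ratios can arise when few or no reads are assigned to a transcript in a group. The 6 called transcripts of cytokine receptors went both ways, 2 higher and 4 lower. The higher ones belonged to IL4R, at 8.63 (Q = 0.0261), and TNFRSF1B, at 8.72 (Q = 0.0161), in the authors' deposited transcript table. The same limit holds for both.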
